A study of Mus musculus with 5 samples.

Results

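The 10 genes described here handle iron in oligodendrocytes, microglia and most other cells: *Trf*, *Tfrc*, *Slc11a2*, *Fth1*, *Ftl1*, *Slc40a1*, *Cp*, *Heph*, *Aco1* and *Ireb2*. They were chosen by name as genes of iron uptake, storage, export and control, and every probe set that names one of them was taken. This gave 31 of the 45101 probe sets of the array. Of these, 24 name 1 of the genes alone, 4 name it together with other genes and 3 are control probe sets of the array maker for *Tfrc*. A probe set is a group of short probes that together report 1 transcript, and its value here is a log2 signal, so that 1 unit is a doubling.

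Iron enters most cells bound to transferrin, the product of *Trf*, through the transferrin receptor (*Tfrc*), and leaves the endosome through the transporter DMT1 (*Slc11a2*). Surplus iron is stored in shells of ferritin heavy and light chains (*Fth1* and *Ftl1*), or leaves through ferroportin (*Slc40a1*) with the help of a ferroxidase, ceruloplasmin (*Cp*) or hephaestin (*Heph*). The iron regulatory proteins encoded by *Aco1* and *Ireb2* bind hairpins in several of these mRNAs when iron is scarce, which holds back ferritin translation and protects the *Tfrc* mRNA from decay. Oligodendrocytes are the most iron-rich cells of the adult brain and the main brain source of *Trf* mRNA, and microglia store iron in ferritin and export it through ferroportin.

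The study asked how the concentration of LY294002, a small molecule that inhibits PI3K, alters the transcriptome of adult white matter. Optic nerves of C57BL/6 mice aged P35 to P45 were maintained as organotypic explants in vitro over 3 days, and their RNA was read on 5 Affymetrix arrays of the mouse genome, 3 with the low concentration (L-LY29) and 2 with the high one (H-LY29). The sample labels give 0.5 µM for L-LY29 and 50 µM for H-LY29, while the study's text gives a higher low dose for adult nerves, and the labels spell the compound LY294002 in titles and LY295002 in the treatment entries. Both groups carried the compound, and no difference of genotype between them is given. The study's methods give a total of nerves and of mice for the transcriptome work, but how these were shared out over the arrays is not stated there or in the labels, so a p-value speaks to the spread between arrays, which may be technical, and the small number of arrays limits the precision. Untreated nerves are not analysed here. A difference below is always the L-LY29 value less the H-LY29 value and does not say which dose moved away from untreated tissue.

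Some properties of the arrays touch every value below. The poly-A control probe sets, which report transcripts that a laboratory adds to the RNA, averaged 10.22 on the L-LY29 arrays and 3.17 on the H-LY29 arrays over 24 probe sets. The sorted values of arrays of the same dose lay 0.00852 to 0.0135 apart on average and those of different doses 0.254 to 0.264 apart. Of the 45101 values, 8199 to 8963 were equal to the last digit between 2 L-LY29 arrays and 1940 between the H-LY29 arrays. Between arrays of different doses 3206 to 3347 were equal. How far processing narrowed the spread within a dose was not tested. The array medians were 5.33 to 5.35 with L-LY29 and 5.54 to 5.56 with H-LY29. Dose and array preparation therefore cannot be told apart. The signal of 3' minus 5' control probe sets for actin, a sign of RNA integrity or labelling, was 0.43 with L-LY29 and 0.92 with H-LY29, and that for *Gapdh* was -0.13 and 0.69. In whole tissue, fewer cells of a type and less RNA per cell cannot be told apart.

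RefSeq promoters of build GRCm38.p6 were on hand for 6 of the 10 genes, with none for *Trf*, *Slc40a1*, *Slc11a2* or *Heph*. The 250 bases before the start are shown for the ferritin chains and for the transferrin receptor, because these genes stand for iron storage and iron uptake. Capitals mark CACGC, which is GCGTG on the other strand, 1 of the core letters of the hypoxia response element. The sequences come from chr19:9982396-9982645 (plus strand) for *Fth1*, chr7:45459887-45460136 (minus strand) for *Ftl1* and chr16:32608646-32608895 (plus strand) for *Tfrc*.
Fth1: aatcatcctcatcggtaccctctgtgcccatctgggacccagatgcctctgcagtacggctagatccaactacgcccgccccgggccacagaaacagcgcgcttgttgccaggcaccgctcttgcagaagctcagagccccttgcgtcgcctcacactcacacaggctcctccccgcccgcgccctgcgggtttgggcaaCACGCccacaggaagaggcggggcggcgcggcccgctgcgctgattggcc
Ftl1: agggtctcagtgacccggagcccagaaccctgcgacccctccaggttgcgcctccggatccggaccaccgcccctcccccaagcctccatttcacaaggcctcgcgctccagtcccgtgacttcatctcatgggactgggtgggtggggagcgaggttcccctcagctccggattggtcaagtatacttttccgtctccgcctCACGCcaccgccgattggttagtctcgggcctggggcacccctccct
Tfrc: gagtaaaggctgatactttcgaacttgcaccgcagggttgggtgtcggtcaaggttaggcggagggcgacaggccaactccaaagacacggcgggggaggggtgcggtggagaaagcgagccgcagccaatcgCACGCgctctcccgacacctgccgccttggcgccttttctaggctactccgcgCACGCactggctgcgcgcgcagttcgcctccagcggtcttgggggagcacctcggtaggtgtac
The match began 50 bases before the start in *Fth1*, 47 bases before it in *Ftl1*, and 117 and 64 bases before it in *Tfrc*. GCGTG was present on either strand in 28.2% of 32851 promoters of this length. The other hypoxia core searched, ACGTG, was present in 16.6% of them and TGACNNNGC, the core of the antioxidant response element, in 10.2%. A second *Tfrc* start held 1 ACGTG and 2 GCGTG, and TGACNNNGC was in no promoter of the 6 genes. The promoters of *Cp*, *Aco1* and *Ireb2*, and that of an upstream *Fth1* start, held none of these letters. The 3 promoters shown were rich in G and C, at 66.8%, 65.2% and 64.8%, against a median of 52.4% over all promoters. A match is a description of letters and not of a binding site.

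Ferritin heavy chain and ferroportin transcripts were higher with L-LY29, whereas *Cp*, *Slc11a2* and *Ireb2* were lower. *Tfrc* was lower by a small margin on its brightest probe set only, and its 2 other tested probe sets did not pass. *Aco1* gave opposite answers from 2 probe sets, and *Trf* did not pass the test. Of the 24 probe sets that name 1 gene, 20 had a mean signal above the filter of 4.77 log2 units (the 40th percentile) and were tested. The test was limma across all 27001 tested probe sets, with Benjamini-Hochberg adjusted p under 0.05 as the threshold. Among the 20, 12 were lower with L-LY29, 5 were higher and the other 3 did not pass. Of the 5, 1 probe set of *Slc40a1* passed the filter only through its L-LY29 values. Over all tested probe sets 28.9% were called higher and 42.9% lower, 71.8% in all, so a call was the usual outcome on these arrays. The arrays of the 2 doses did not overlap in 18 of the 20, against 81.3% of all tested probe sets. The median difference was -1.33 over the 20 and -0.18 over all tested probe sets. Of the 20, however, *Cp* gave 7, with 6 of the lower calls, and *Slc11a2* gave 3, all lower. The median over the 20 is therefore weighted to these genes. Tested as single genes, with the brightest probe set standing for the gene, 3 of 7 were higher and 4 lower, against 27.1% and 46.6% of 12935 genes, and all 7 were without overlap, against 83.1%. Their median of -0.30 was near the -0.26 of all genes.

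**Figure D1:**
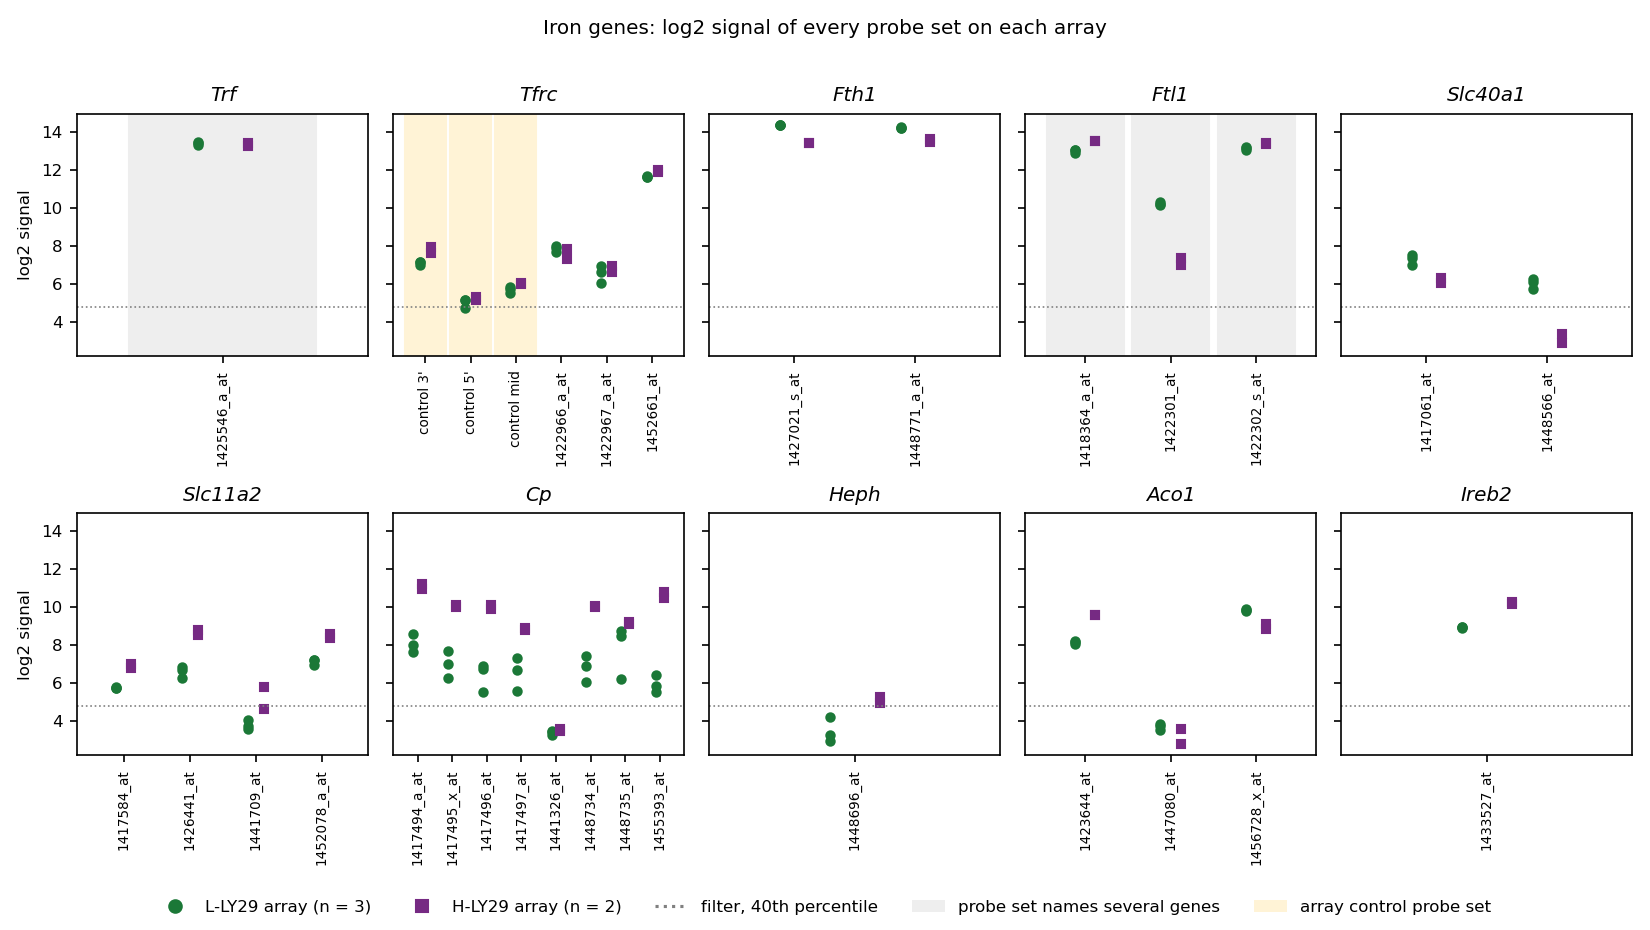
Log2 signal (vertical axis) of each of the 31 probe sets of the 10 iron genes on each array, with circles for the 3 L-LY29 arrays and squares for the 2 H-LY29 arrays. Both *Fth1* and both *Slc40a1* probe sets were higher with L-LY29, and the tested *Cp* probe sets spread widely among the L-LY29 arrays and little between the H-LY29 arrays. The dotted line is the filter at 4.77, and shading marks probe sets that name several genes and array controls.

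Transferrin, the carrier that delivers ferric iron, gave a bright signal on every array and did not differ detectably. Its only probe set (1425546_a_at) also names *Srprb*, a subunit of the receptor for the signal recognition particle, so the value is uncertain for *Trf* alone. It read 13.46, 13.33 and 13.43 on the L-LY29 arrays and 13.44 and 13.29 on the H-LY29 arrays. The groups overlapped, with means of 13.41 ± 0.0686 (SD, n = 3) and 13.37 ± 0.108 (SD, n = 2). The difference was 0.04 with a 95% confidence interval of -0.12 to 0.21 (limma, adjusted p = 0.582). With array medians made equal it became 0.25 and passed (adjusted p = 0.0140), with quantile normalization it was -0.09, and without H-LY29 replicate 2 it was -0.03.

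The transferrin receptor was slightly lower with L-LY29 on its brightest probe set. Probe set 1452661_at read 11.63, 11.70 and 11.63 with L-LY29 and 11.91 and 11.99 with H-LY29. All L-LY29 arrays were below both H-LY29 arrays. The difference was -0.30 (SE 0.0478, limma adjusted p = 0.00327), and it was -0.09 and no longer passed with equal array medians (adjusted p = 0.170).

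The other *Tfrc* probe sets were dimmer and overlapped between doses. Probe set 1422966_a_at read 7.97, 7.89 and 7.68 against 7.32 and 7.84, a difference of 0.27 (95% confidence interval -0.22 to 0.75, limma adjusted p = 0.256). Probe set 1422967_a_at read 6.95, 6.64 and 6.06 against 6.96 and 6.64, a difference of -0.25 (95% confidence interval -1.01 to 0.51, limma adjusted p = 0.470), which turned to 0.25 with quantile normalization.

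*Tfrc* is also 1 of the transcripts that the array maker uses as a control of RNA length, with probe sets at the 3' end, the middle and the 5' end of its mRNA. At the 3' end the L-LY29 arrays read 7.15, 7.16 and 7.0 and the H-LY29 arrays 7.64 and 7.95. These groups did not overlap, and the means differed by -0.69. The means differed by -0.29 in the middle and by -0.21 at the 5' end, so the size of the difference depended on the position along the mRNA. Within arrays, the 3' minus 5' gap was 1.99, 2.0 and 2.26 with L-LY29 and 2.35 and 2.79 with H-LY29. All L-LY29 gaps were below both H-LY29 gaps. The part of RNA length in the *Tfrc* differences was not tested.

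DMT1 (*Slc11a2*), which moves ferrous iron out of endosomes, was lower with L-LY29 on each of its 3 tested probe sets. The brightest, 1452078_a_at, read 6.97, 7.24 and 7.23 with L-LY29 and 8.39 and 8.60 with H-LY29. The difference was -1.35 (SE 0.131, 95% confidence interval -1.68 to -1.01, limma adjusted p = 5.45e-04). Probe set 1426441_at read 6.83, 6.29 and 6.70 against 8.55 and 8.80, a difference of -2.07 (limma adjusted p = 5.03e-04). Probe set 1417584_at read 5.73, 5.74 and 5.77 against 7.0 and 6.82, a difference of -1.16 (limma adjusted p = 3.63e-04). The L-LY29 arrays were below the H-LY29 arrays on all 3, and on another probe set under the filter, 1441709_at, the means differed by -1.42, also without overlap. Its values, 3.71, 3.6 and 4.03 against 4.61 and 5.80, were lower on the L-LY29 arrays than the brightest poly-A control on either H-LY29 array (4.30 and 4.25).

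**Figure D2:**
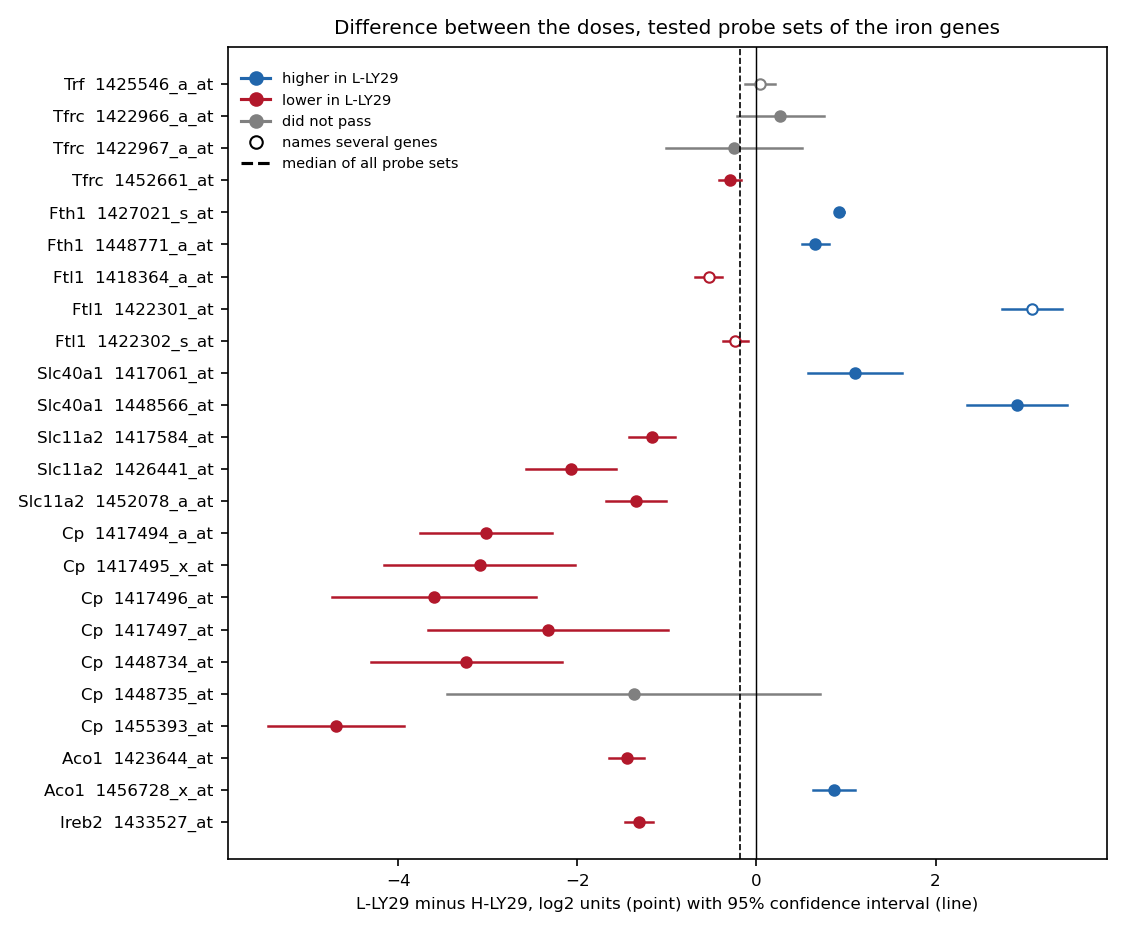
Difference between the doses in log2 units (horizontal axis, L-LY29 minus H-LY29) for each tested probe set of the iron genes that is not an array control, with 95% confidence intervals as lines. *Cp* and *Slc11a2* lie to the left, *Fth1* and *Slc40a1* to the right, and *Aco1* and *Ftl1* have probe sets on both sides. The dashed line is the median of all tested probe sets, -0.18.

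Ferritin heavy chain, the subunit that oxidises iron as it enters the shell, was higher with L-LY29. Probe set 1427021_s_at read 14.38, 14.37 and 14.37 with L-LY29 and 13.45 on both H-LY29 arrays. Probe set 1448771_a_at read 14.22, 14.25 and 14.22 with L-LY29 and 13.48 and 13.66 with H-LY29. The spread within a dose was far smaller than the gap between doses on both probe sets. The part of array processing and of the top of the range in this small spread was not tested. The differences were 0.93 (SE 0.0208, limma adjusted p = 3.90e-05) and 0.66 (SE 0.0573, limma adjusted p = 3.83e-04). The highest value of any probe set on any array was 14.45, so *Fth1* with L-LY29 lay at the top of the measured range and the size of its difference is not read as a fold change. *Fth1* has processed copies elsewhere in the genome, and how far they share these probes was not tested.

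Ferritin light chain, the subunit that helps to build the mineral core, had no probe set of its own, as all 3 also name the pseudogene *Ftl1-ps2*. The 2 bright ones were lower with L-LY29. Probe set 1418364_a_at read 12.90, 13.07 and 13.04 with L-LY29 and 13.55 and 13.52 with H-LY29, a difference of -0.53 (SE 0.0586, limma adjusted p = 8.45e-04). Probe set 1422302_s_at read 13.08, 13.23 and 13.17 against 13.37 and 13.43, a difference of -0.24 (limma adjusted p = 0.0122). The second call did not hold with equal array medians (-0.02, adjusted p = 0.695), without H-LY29 replicate 1 (-0.27, adjusted p = 0.0667) or without H-LY29 replicate 2 (-0.21, adjusted p = 0.111).

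The third light chain probe set went the other way. Probe set 1422301_at, which also names 3 microRNA genes of the *Mir692* family, read 10.17, 10.33 and 10.20 with L-LY29 and 6.97 and 7.34 with H-LY29. The difference was 3.08 (SE 0.130, 95% confidence interval 2.74 to 3.41, limma adjusted p = 5.99e-05). The 3 probe sets thus gave no single direction for *Ftl1*, and the heavy and light chains cannot be compared in level because their probes differ.

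Ferroportin (*Slc40a1*), the only known exporter of ferrous iron in mammals, was higher with L-LY29 on the probe set that was above the filter at both doses. This probe set, 1417061_at, read 6.97, 7.53 and 7.37 with L-LY29 and 6.32 and 6.06 with H-LY29. The means were 7.29 ± 0.290 (SD, n = 3) and 6.19 ± 0.188 (SD, n = 2), without overlap. The difference was 1.10 (SE 0.202, 95% confidence interval 0.58 to 1.62, limma adjusted p = 0.00547), and without H-LY29 replicate 2 it was 0.97 and no longer passed (adjusted p = 0.0711).

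The second ferroportin probe set, 1448566_at, read 6.10, 6.23 and 5.74 with L-LY29 and 3.35 and 2.89 with H-LY29. The difference was 2.91 (SE 0.217, limma adjusted p = 2.34e-04). Its H-LY29 values were no brighter than the poly-A controls on those arrays, whose highest probe set averaged 4.14, so the size of this difference is not read as a fold change, and the probe set passed the filter only through its L-LY29 values. It had to differ to be tested, so it is given as a value and not as support for the first.

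Ceruloplasmin, the copper ferroxidase that astrocytes carry on their surface, showed the largest differences among the 10 genes. Of its 7 tested probe sets, 6 were lower with L-LY29, by 2.33 to 4.70 log2 units. The brightest, 1417494_a_at, read 8.01, 7.64 and 8.56 with L-LY29 and 11.23 and 10.96 with H-LY29. The means were 8.07 ± 0.464 (SD, n = 3) and 11.10 ± 0.190 (SD, n = 2), and the difference was -3.02 (95% confidence interval -3.76 to -2.28, limma adjusted p = 5.01e-04). The widest gap was on 1455393_at, which read 5.52, 5.86 and 6.44 against 10.80 and 10.47, a difference of -4.70 (limma adjusted p = 1.44e-04). No L-LY29 array reached an H-LY29 array on any of the 7.

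The L-LY29 arrays differed much more from each other in *Cp* than the H-LY29 arrays did. The SDs of the 7 probe sets were 0.461 to 1.38 with L-LY29 and 0.0457 to 0.238 with H-LY29. L-LY29 replicate 2 was the lowest of the 3 in 6 of the 7 probe sets, and replicate 3 the highest in 6. On 1448735_at, the probe set that did not pass, the L-LY29 arrays read 8.47, 6.21 and 8.73 against 9.12 and 9.22, a difference of -1.37 (limma adjusted p = 0.186). Without replicate 2 the difference was -0.58 and passed (adjusted p = 0.0204). On 1417497_at, which read 6.66, 5.58 and 7.33 against 8.80 and 8.91 (-2.33, limma adjusted p = 0.0111), the call was lost without H-LY29 replicate 1 (-2.38, adjusted p = 0.107) or H-LY29 replicate 2 (-2.28, adjusted p = 0.116). Another probe set, 1441326_at, lay under the filter, at 3.26 to 3.59 on all arrays.

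Hephaestin, the ferroxidase related to ceruloplasmin, was dim. Its single probe set (1448696_at) read 3.25, 2.94 and 4.23 with L-LY29 and 4.92 and 5.24 with H-LY29. All L-LY29 arrays were below both H-LY29 arrays, with means of 3.48 ± 0.671 (SD, n = 3) and 5.08 ± 0.227 (SD, n = 2). Its mean over the 5 arrays was under the filter. With no filter, where 58.9% of all probe sets were called, the difference was -1.61 (limma adjusted p = 0.0282). On all 3 L-LY29 arrays it was dimmer than the brightest poly-A control on either H-LY29 array (4.30 and 4.25), so no fold change is given.

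Iron regulatory protein 2 (*Ireb2*), which is degraded when iron is plentiful, was lower with L-LY29. Its probe set (1433527_at) read 8.91, 8.93 and 8.95 with L-LY29 and 10.19 and 10.30 with H-LY29. The difference was -1.31 (SE 0.0613, 95% confidence interval -1.47 to -1.16, limma adjusted p = 7.16e-05), and the SDs were 0.0156 with L-LY29 and 0.0727 with H-LY29. *Ireb2* kept its direction and its side of the threshold under all alternatives.

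*Aco1*, whose protein is a cytosolic aconitase or iron regulatory protein 1 depending on its iron-sulphur cluster, gave no single direction. Probe set 1423644_at read 8.22, 8.06 and 8.14 with L-LY29 and 9.58 and 9.61 with H-LY29, a difference of -1.45 (SE 0.0772, limma adjusted p = 9.50e-05). The brighter 1456728_x_at, whose suffix marks probes that can match other transcripts, read 9.90, 9.80 and 9.87 against 8.87 and 9.10, a difference of 0.86 (SE 0.0903, limma adjusted p = 7.04e-04). Both were without overlap between doses, in opposite directions. As the brightest, the second stood for the gene among the 3 higher genes, whereas the mean of both was -0.29 (adjusted p = 0.0165). Another, 1447080_at, lay under the filter at 2.78 to 3.82.

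The other genes of iron handling, listed by role, also moved in both directions. The gene test called 73.8% of all genes, 27.1% higher and 46.6% lower, and the counts below are to be read beside these shares. Among 15 tested genes of other uptake routes and endosomal reduction, 4 were higher with L-LY29, 9 lower and 2 did not pass, with a median of -1.11. The 4 higher ones were *Snx3*, which recycles the transferrin receptor (1.14, limma adjusted p = 4.84e-05), *Slc22a17* (0.72), *Ltf* (0.67) and *Tfr2* (0.63). *Ltf* was under the filter with H-LY29 (4.51) and passed only through L-LY29 (5.17), and it is on a gene list that the study drew from these arrays, so its direction is not independent evidence. *Tfr2* lost its call under several alternatives. *Scara5*, a ferritin receptor, was lower by a difference of -2.96, and *Lcn2*, a siderophore-binding protein of inflamed astrocytes, by -2.72. The *Lcn2* arrays read 9.66, 9.81 and 10.83 with L-LY29 and 12.83 and 12.81 with H-LY29. *Steap1* (-1.89) and the lysosomal iron channel *Mcoln1* (-1.48) were also lower.

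Of 6 tested iron chaperones and ferritinophagy genes, 2 were higher, 1 was lower and 3 did not pass, and the median was 0.05. *Pcbp1*, which delivers iron to ferritin, was higher by 0.49 (limma adjusted p = 0.00142). Its relative *Pcbp2* was higher by 0.12 on its brightest probe set, but the mean of its probe sets was -0.18. *Herc2*, part of the ligase that degrades *Ncoa4* protein, was lower (-0.42), but the call was lost with quantile normalization (-0.02, adjusted p = 0.877), with equal array medians (-0.21, adjusted p = 0.154) and without either H-LY29 array (-0.35 and -0.49). *Ncoa4*, the receptor that carries ferritin to lysosomes, read 10.71 on all 3 L-LY29 arrays and 10.71 and 10.75 on the H-LY29 arrays. The values of the L-LY29 arrays and of H-LY29 replicate 1 were equal to the last digit, so they are not read as a measured spread. The difference was -0.02 (limma adjusted p = 0.653) on its brightest probe set, whereas another *Ncoa4* probe set was called higher with L-LY29.

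Genes of systemic and IRP control were split evenly, with 4 of 12 higher, 4 lower and 4 not passing, and a median of 0.20. The hepcidin regulators *Furin* (-2.93), *Neo1* (-1.0) and *Bmp6* (-1.43) were lower, although another *Neo1* probe set was called the other way. The ligase scaffold *Cul1* was also lower (-0.55), but its call was lost with quantile normalization (-0.20, adjusted p = 0.175). *Tmprss6* (1.33), *Smad4* (0.58), *Skp1* (0.33) and *Epas1* (0.19) were higher. The *Smad4* difference fell to between 0.09 and 0.12, and no longer passed, when any 1 L-LY29 array was left out and another probe set became the brightest. *Fbxl5*, the iron sensor that marks IRP2 for degradation, read 10.44, 10.50 and 10.50 against 10.65 and 10.29, and its groups overlapped (limma adjusted p = 0.981).

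Of 8 tested haem synthesis genes, 5 were lower, 2 higher and 1 did not pass, where 46.6% of all genes were lower and 27.1% higher, and the median was -0.98. The lower ones were *Alad* (-2.35), *Urod* (-1.29), *Uros* (-1.14), *Ppox* (-1.13) and *Fech* (-0.84), the enzyme that inserts iron, although another *Fech* probe set was called the other way. *Cpox* (0.77) and *Alas1* (0.36), the first enzyme of the pathway, were higher. Of 13 genes of haem uptake, export and breakdown, 3 were higher, 6 lower and 4 did not pass (median -0.33). *Cd163*, a macrophage receptor for haemoglobin (-2.78), and *Hmox1*, haem oxygenase 1 (-1.72), were lower. *Pgrmc1* (0.75), *Slc48a1* (0.63) and *Blvra* (0.28) were higher, and *Blvra* lost its call under several alternatives. *Slc48a1* was equal to the last digit on all 3 L-LY29 arrays (10.96). *Hmox1* read 8.43, 8.71 and 8.52 with L-LY29 and 10.40 and 10.15 with H-LY29, without overlap.

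Among 17 genes of mitochondrial iron import and iron-sulphur assembly, 6 were higher, 9 lower and 2 did not pass (median -0.40). The smallest adjusted p-values were those of *Abcb10* (-2.36), *Lyrm4* (-2.53), *Fdx1* (1.88) and *Abcb8* (2.31), and *Abcb10* and *Abcb8* each had another probe set called the other way. The mean of the *Abcb8* probe sets was 0.06 and did not pass (adjusted p = 0.603). Of 14 genes of lipid peroxidation and ferroptosis, 5 were higher, 3 lower and 6 did not pass (median -0.06). The glutathione synthesis genes *Gclc* (1.76), *Gclm* (1.73) and *Gss* (1.47) were all higher with L-LY29, as were *Lpcat3* (1.43) and *Vdac3* (0.40). *Gclc* read 9.76, 10.01 and 9.77 against 7.86 and 8.32. *Aifm2*, a suppressor of ferroptosis (-2.09), *Acsl4* (-1.13) and *Slc3a2* (-0.34) were lower. The *Acsl4* call was lost without either H-LY29 array (adjusted p = 0.101 and 0.109) and with the mean of its probe sets (-0.21, adjusted p = 0.337), and that of *Slc3a2* with equal array medians (-0.13, adjusted p = 0.142). *Gpx4*, which reduces lipid peroxides, did not pass on its brightest probe set (0.14, limma adjusted p = 0.224), but another *Gpx4* probe set was called higher.

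**Figure D3:**
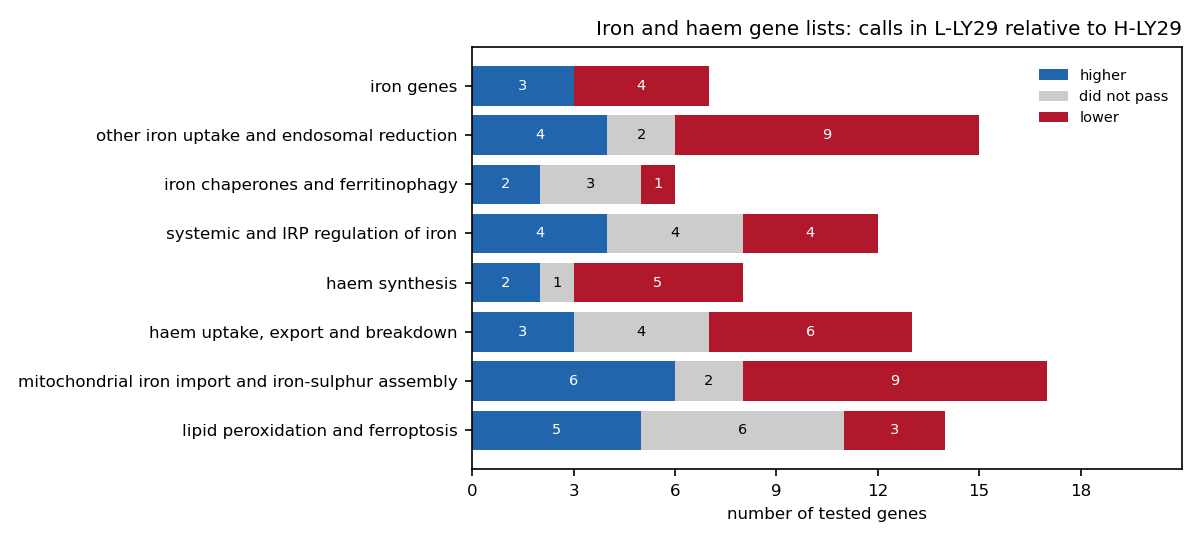
Number of tested genes (horizontal axis) in each list of iron, haem and ferroptosis genes that were higher, lower or did not pass with L-LY29 relative to H-LY29, by the gene test over 12935 genes. Lower genes outnumbered higher ones in uptake (9 against 4) and haem synthesis (5 against 2), as they did over all genes (46.6% against 27.1%), and higher genes outnumbered lower ones in ferroptosis (5 against 3).

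The markers of the cell types that carry these genes differed between the doses too, as most genes did (27.1% higher and 46.6% lower). The 14 mature oligodendrocyte markers averaged 11.99 to 12.06 on the L-LY29 arrays and 11.78 to 11.87 on the H-LY29 arrays, and 8 were higher, 4 lower and 2 did not pass. *Mbp*, which marks myelin, was bright on every array (means 14.41 and 14.06). The 14 microglia markers averaged 9.28 to 9.43 with L-LY29 and 8.32 to 8.50 with H-LY29, with 11 higher, 2 lower and 1 not passing. The 2 lower ones were *C1qb* (-1.14) and *Tmem119* (-0.45), although another *C1qb* probe set was called the other way. *Fcrls*, among the higher ones, passed the filter only through L-LY29. *Cx3cr1* averaged 7.76 and 5.85, and *P2ry12* 7.49 and 6.87. Most microglia markers thus moved in the direction of *Slc40a1* and *Fth1*, and their part in those differences was not tested.

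Like *Cp*, 7 of the 13 astrocyte markers and all 12 meningeal fibroblast markers were lower with L-LY29. The 13 astrocyte markers averaged 9.12, 8.23 and 9.09 on the 3 L-LY29 arrays and 10.33 to 10.50 on the H-LY29 arrays, with 7 lower, 1 higher and 5 not passing, where 46.6% of all genes were lower. The higher one was *S100b* (1.38). The L-LY29 array with the lowest astrocyte mean, replicate 2, was also the lowest for most *Cp* probe sets. Most *Cp* probe sets were highest on replicate 3, where the astrocyte mean (9.09) was close to that on replicate 1 (9.12). The fibroblast mean was lowest on replicate 1 (7.37) and highest on replicate 3 (7.90). *Gfap* itself averaged 11.27 and 11.60 on its brightest probe set and did not pass (-0.33, limma adjusted p = 0.118). Of its 3 tested probe sets, however, 2 were called lower with L-LY29. All 12 meningeal fibroblast markers were lower with L-LY29, at 7.37 to 7.90 against 9.80 to 10.27, and *Col1a1* had the widest gap (-6.64). The part of these cell types in the *Cp* difference was not tested.

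Endothelial markers, which matter here because vessels hold much of the tissue's *Tfrc* protein, averaged 7.78 to 8.13 with L-LY29 and 7.37 to 7.54 with H-LY29. Of 10 tested, 5 were higher, among them *Cldn5* (8.57 against 7.42), 2 were lower, *Slc2a1* (-1.74) and *Flt1* (-1.06), and 3 did not pass. The part of vessels in the *Tfrc* values was not tested. Of the 10 monocyte and macrophage markers 3 were higher, 4 lower and 3 did not pass, at 7.02 to 7.40 against 7.56 to 7.84, and *Ccr2* and *Mrc1* passed the filter only through 1 dose. Only 2 of the erythroid markers passed the filter, *Hba-a2* (-4.23) and *Klf1*, which was at the poly-A level with H-LY29 (3.79) and passed the filter only through L-LY29 (5.89), and *Alas2*, the erythroid haem enzyme, was under it at 3.91 and 3.45. Of 5 tested retina and pigment epithelium markers, *Ttr* was higher (0.73), *Rlbp1* lower (-1.98) and 3 did not pass. According to the study's methods, nerves were removed with the retina and then cleaned of arachnoid and attached tissue before culture. The part of any blood cells, retina or meninges that remained was not tested.

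**Figure D4:**
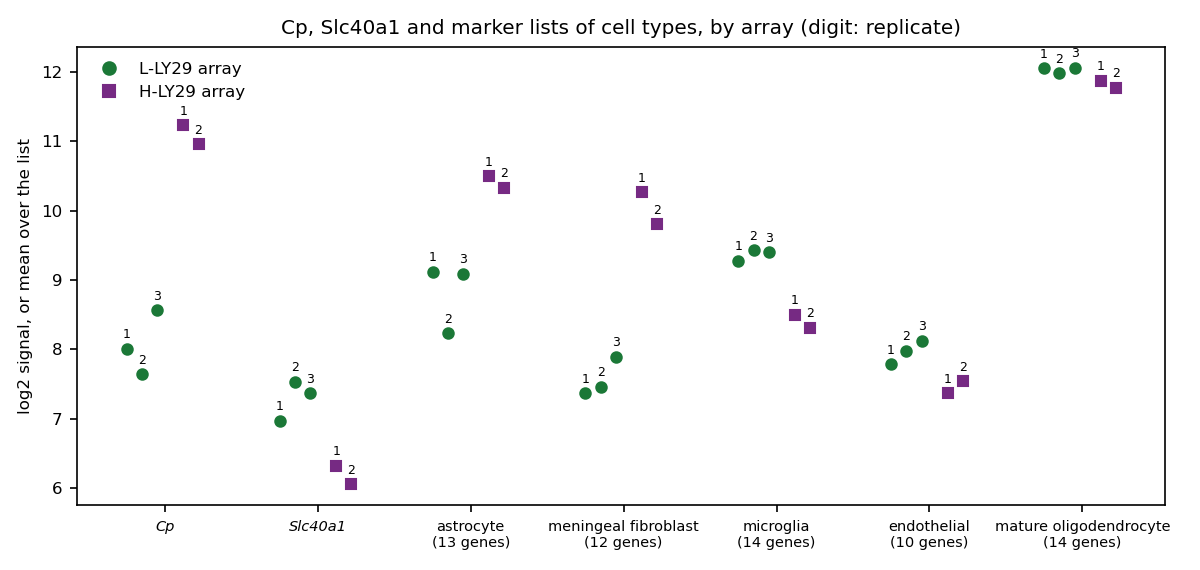
Log2 signal of the probe set standing for *Cp* and for *Slc40a1*, and mean log2 signal of 5 marker lists, on each array, with digits for the replicate. *Cp* and the astrocyte and fibroblast lists were lower on all 3 L-LY29 arrays, *Slc40a1* and the microglia, endothelial and oligodendrocyte lists were higher, and levels of different columns are not compared.

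As a description over the 5 arrays, the genes whose pattern lay nearest to *Tfrc*, each centred on its own mean, were *Ago2*, *Ubxn4* and *Pecr*, at Euclidean distances of 0.0422, 0.0446 and 0.0448. Nearest to the *Trf* probe set were *Lipt2*, *Rab3b* and *Mblac2*, at 0.0179, 0.0447 and 0.0526. The differences between the doses were -0.27, -0.31 and -0.29 for the first 3 genes and 0.03, 0.05 and 0.05 for the others.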

How the data were processed

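RNA of cultured optic nerves was hybridised to Affymetrix GeneChip arrays of the mouse genome, and the labels gave the dose of each of the 5 arrays. According to the study's methods, files from Affymetrix GeneChip Operating Software were normalised with MAS-5 in GeneSpring GX 12 of Agilent. Many deposited values were equal to the last digit between arrays, and whether they came from that step was not tested. The values deposited by the authors are log2 signals of 45101 probe sets, and they were used as deposited with nothing added. Of these, 64 are array controls, 34945 name 1 gene, 932 several and 9160 none in the annotation used.

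A filter removed probe sets whose 5-array mean was below the 40th percentile (4.77), and 27001 were tested in limma 3.58.1 under R 4.3.3 (lmFit, eBayes with intensity trend, two-sided, Benjamini-Hochberg). For tests of 12935 genes, the brightest probe set naming 1 gene stood for it. Every iron gene and all its probe sets were named. From each other list of iron, haem or ferroptosis genes, up to 4 called genes of smallest adjusted p were named. Every called gene was added where a direction had 5 or fewer calls. A few related genes were chosen after their values were seen. From the cell type lists only defining markers and some others were named, and not every called gene. The members and lists were chosen with earlier results of these data known. The tests were checked on simulated data with independent noise on each array, without the equal values and dose-linked properties of these arrays. Alternatives for the values were other filters, a floor at the 10th percentile, quantile normalization, equal array medians and the mean of probe sets per gene. Alternatives for the test were limma without the trend, an unpaired t-test, a replicate block and leaving out each array.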

Additional observations from a re-analysis of the deposited data

How the results depend on the processing

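The counts of called iron probe sets stayed within 4 to 6 higher and 11 to 14 lower, and of called iron genes within 2 to 3 higher and 3 to 5 lower, under all alternatives run. Quantile normalization gave 6 and 12 probe sets and equal array medians 5 and 11. Between the doses the median of all tested probe sets was -0.18 as deposited, 0.14 after quantile normalization and 0.03 with equal array medians, and the higher share of called probe sets was 40.2%, 55.4% and 50.3%. The iron probe set median, weighted to *Cp* with 7 of the 20 probe sets, was -1.33, -0.91 and -1.12. Directions turned for the *Trf* probe set with quantile normalization (-0.0852) and without H-LY29 replicate 2 (-0.0348, against 0.118 without H-LY29 replicate 1), for *Tfrc* 1422967_a_at with quantile normalization (0.25), and for *Aco1* (-0.29) and *Pcbp2* (-0.18) with the mean of their probe sets. The *Tfrc* gene value with that mean was -0.10 and did not pass (adjusted p = 0.541), and *Tfrc* 1422966_a_at passed with quantile normalization (0.78, adjusted p = 0.0129). With the *Tfrc* controls included in the test, an alternative chosen after seeing the data, the 3' control passed (adjusted p = 0.00576) and the middle (0.0938) and 5' (0.320) controls did not. The shared replicate numbers did not pair the arrays (correlation of deviations 0.0157 and 0.0348), and with the replicate block 5 probe sets were higher and 12 lower and 3 genes higher and 4 lower, with 17108 calls over all probe sets against 19399. Over the 20 tested probe sets that name 1 iron gene and the 4 that name several genes, 317 of 331 alternative values kept direction and call, 8 lost and 3 gained the call and 3 turned. Of 594 values for other named genes, 51 lost the call, mostly those of *Epas1*, *Blvra*, *Herc2*, *Pcbp2*, *Tfr2*, *Alas1* and *Acsl4*. *Slc40a1* 1448566_at fell under the filter without any 1 L-LY29 array and then had no value.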
